A study of Mus musculus with 16 samples.

Results

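The genes of a juvenile growth program, Lin28a, Lin28b, Hmga2, Igf2bp1, Igf2bp2, Igf2bp3, Myc and Mycn, were followed in the neonatal mouse cochlea. They were chosen by name as 8 of the 36536 gene identifiers counted in each library, and the question asked of them was whether their transcripts are lower at postnatal day 5 (P5) than at postnatal day 0 (P0) in supporting cells, as in the other cells of the cochlea. All cochleas came from the Lfng-EGFP BAC transgenic line B6;FVB-Tg(Lfng-EGFP)HM340Gsat/Mmucd, in which a bacterial artificial chromosome with Lfng regulatory sequence drives green fluorescent protein (GFP) in most, but not all, types of supporting cell. Explants taken at P0 or P5 were kept for 24 hours in DMEM/F12 with B27, N-acetylcysteine, EGF at 5 ng/ml, FGF2 at 2.5 ng/ml and either DAPT at 10 µM, which inhibits gamma-secretase and thereby Notch signaling, or 0.04% DMSO as vehicle. Every group was therefore exposed to both growth factors. The dissociated cells were sorted into a bright GFP+ fraction and a GFP- fraction, which holds the remaining cell types together, and RNA was sequenced from 2 samples of each of the 8 combinations of age, treatment and fraction (16 libraries). The labels do not say whether the 2 samples of a group came from separate animals or cultures, so p-values measure the spread between these samples, which may be technical. Markers set the fractions apart as labelled in every library, in that 8 supporting cell markers summed to 2305-5804 CPM (read counts scaled to the size of the library) in GFP+ libraries and to 107.9-230.4 CPM in GFP- libraries.

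LIN28A and LIN28B are RNA-binding proteins of early embryonic and immature cells that block the processing of let-7 microRNA precursors, and let-7 in turn represses the transcripts of LIN28 itself and of many growth genes. HMGA2, a chromatin protein of fetal and young stem cells, and the IGF2BP proteins, which bind and stabilize transcripts including those of Igf2 and Myc, are among the best known targets of let-7, and MYC and MYCN are transcription factors of growth and proliferation that are linked to the same circuit. In the organ of Corti, supporting cells of newborn mice can still divide or convert to hair cells, and this ability is largely lost over the first postnatal week.

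To show what the members share at the level of sequence, the let-7 family was taken from the RefSeq table of mouse microRNAs (build GRCm38.p6), which held 11 mature entries with 9 distinct sequences. All 11 carry the same seed at bases 2 to 8 of the mature strand, which is set in capitals in the examples below. The mature strands differ from each other only outside the seed.
let-7a: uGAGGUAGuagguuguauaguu
let-7b: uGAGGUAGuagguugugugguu
let-7d: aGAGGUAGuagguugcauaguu
let-7g: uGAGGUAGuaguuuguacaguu
miR-98: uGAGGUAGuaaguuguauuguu

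The complement of this seed, CTACCTC, was searched on the transcript strand of the longest annotated 3′ UTR of each gene (GENCODE M1, build NCBIM37), and matches followed by A (CTACCTCA) were counted among them as 8-base matches. Of 20007 genes with an annotated 3′ UTR, 8.8% held CTACCTC and 3.01% held CTACCTCA. Among the members, 6 of 8 held both: Hmga2, Lin28b and Igf2bp1 had 4 matches each, Lin28a had 2, Igf2bp2 and Igf2bp3 had 1 each, and Myc and Mycn had none. The 3′ UTRs of these genes are of very different length, from 466 bases for Myc to 6337 bases for Igf2bp1. Among the 2134 UTRs of 0.8 to 1.25 times the length of that of Hmga2, 0.141% had as many matches as Hmga2 or more, and this share was 0.282% for Lin28b (1065 UTRs) and 0.263% for Igf2bp1 (380 UTRs), against 14.1% for Igf2bp3 and 13.3% for Igf2bp2. Each set included the gene itself, and the share for Igf2bp1 came from that gene alone. All 8-base sites of the members are printed here, with the 7-base sites of Hmga2 as well because the results turn on that gene, while the 7-base sites of Lin28b and Igf2bp1 are left out. The matched bases are in capitals, 5′ to 3′ on the transcript, with the coordinates of the printed bases in NCBIM37. All of these genes lie on the minus strand.
Hmga2, chr10:119801269-119801298: acattcaatttCTACCTCAgcatcagttgg
Hmga2, chr10:119800033-119800061: actcctcaataCTACCTCtgaatgctaca
Hmga2, chr10:119799595-119799623: tttgcaaggaaCTACCTCcacacttccaa
Hmga2, chr10:119798737-119798765: aaaacacactaCTACCTCttaagtcccag
Lin28a, chr4:133561093-133561122: agcctgttgaaCTACCTCAtttttgccgat
Lin28a, chr4:133560455-133560484: tcgccacaaacCTACCTCActgtgttgaaa
Lin28b, chr10:45100817-45100846: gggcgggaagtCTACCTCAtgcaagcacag
Igf2bp1, chr11:95823081-95823110: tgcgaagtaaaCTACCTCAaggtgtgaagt
Igf2bp1, chr11:95820660-95820689: agtgctattaaCTACCTCAgccccagaggg
Igf2bp1, chr11:95820066-95820095: aaatggatgaaCTACCTCAgtcctcacagt
Igf2bp2, chr16:22059535-22059564: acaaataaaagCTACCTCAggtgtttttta
Igf2bp3, chr6:49036775-49036804: tttttactcaaCTACCTCAggtattcagta
A match is a description of the sequence, and no binding was measured here.

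**Figure D1:**
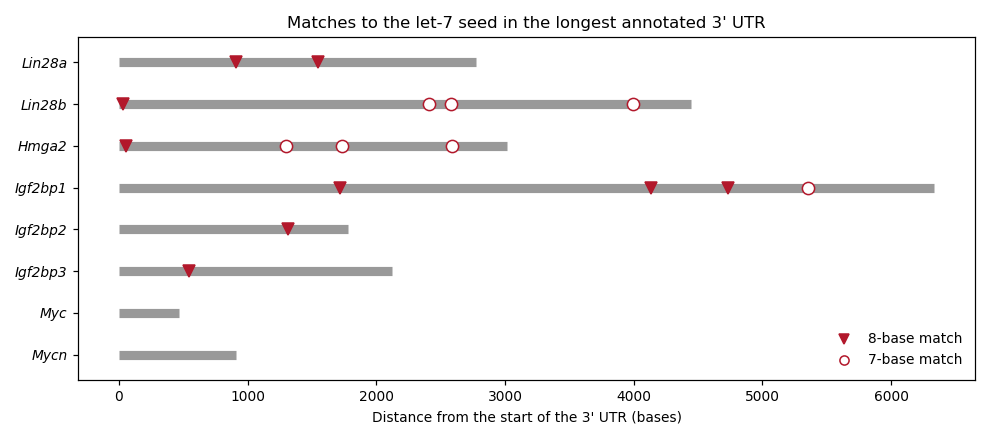
Matches to the let-7 seed along the longest annotated 3′ UTR of each gene, with the distance from the start of the 3′ UTR in bases on the horizontal axis and 1 gene per line. Triangles are 8-base matches and open circles 7-base matches. Hmga2, Lin28b and Igf2bp1 carry 4 matches each, and Myc and Mycn carry none.

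GFP+ libraries held 13755356-23637236 counts in genes and GFP- libraries 34869184-45465324. Reads that the counting assigned to no gene feature made up 50-62% of GFP+ libraries against 6.64-13.7% of GFP- libraries. Whether these include reads in introns is not stated. The 2 mitochondrial rRNA genes took 20.2-29.8% of counts in genes in GFP+ libraries and 0.0441-0.109% in GFP- libraries. Values of GFP+ against GFP- cells were read across this difference, and its part in them was not tested. Per the methods, cDNA from samples with few cells was amplified in an extra first step, and the part of this step in differences between groups was not tested. The library numbers fall into 3 stretches: all GFP- libraries, then 6 GFP+ libraries, and then the 2 P0 DMSO GFP+ libraries alone. Whether these stretches are batches is not stated, so in DMSO a difference of GFP+ cells with age, and at P0 a difference of GFP+ cells with DAPT, cannot be told apart from a difference between stretches, whereas the 4 GFP+ libraries in DAPT lie in the same stretch at both ages. The same holds for every difference between GFP+ and GFP- cells. Fits of GFP+ cells of both treatments and of all libraries also draw on the 2 P0 DMSO GFP+ libraries. In these, 30639 and 31345 genes had reads, against 25651-27156 in the other GFP+ libraries. The library labelled P0 DMSO GFP- replicate 2 stood apart from its group. Over 16225 genes its Pearson correlation with its own replicate was 0.9484, and it correlated on average at 0.9519 with the other P0 GFP- libraries but at 0.9884 with the P5 GFP- libraries. Differences of members that rest on it are given with it and, for the main ones, also without it. It was singled out by its likeness to P5, so leaving it out tends to widen differences between the ages. Values without it are therefore no independent test of a change with age. In a comparison of 2 groups, leaving out 1 library leaves 1 group with a single sample. The p-value then rests on the spread of the other group alone.

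The members differed widely in level. On the scale of CPM per kilobase of exonic length, which allows genes to be compared, P0 DMSO GFP+ cells held 21.9 ± 1.25 (SD, n = 2 here and below) of Hmga2, 12.2 ± 1.42 of Igf2bp2, 9.59 ± 1.32 of Mycn, 8.84 ± 1.97 of Igf2bp3, 2.59 ± 0.491 of Lin28b, 2.43 ± 0.227 of Igf2bp1, 1.88 ± 0.386 of Myc and 0.266 ± 0.0677 of Lin28a. In that order the spreads of Igf2bp2, Mycn and Igf2bp3 met, as did those of Lin28b, Igf2bp1 and Myc, whereas Hmga2 stood above and Lin28a below all others. In P0 DMSO GFP- cells the order was different, with Myc first at 12 ± 2.75 CPM per kilobase and Hmga2 at 2.32 ± 0.937. All values below are CPM, and fold changes are on the log2 scale with their standard error.

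**Figure D2:**
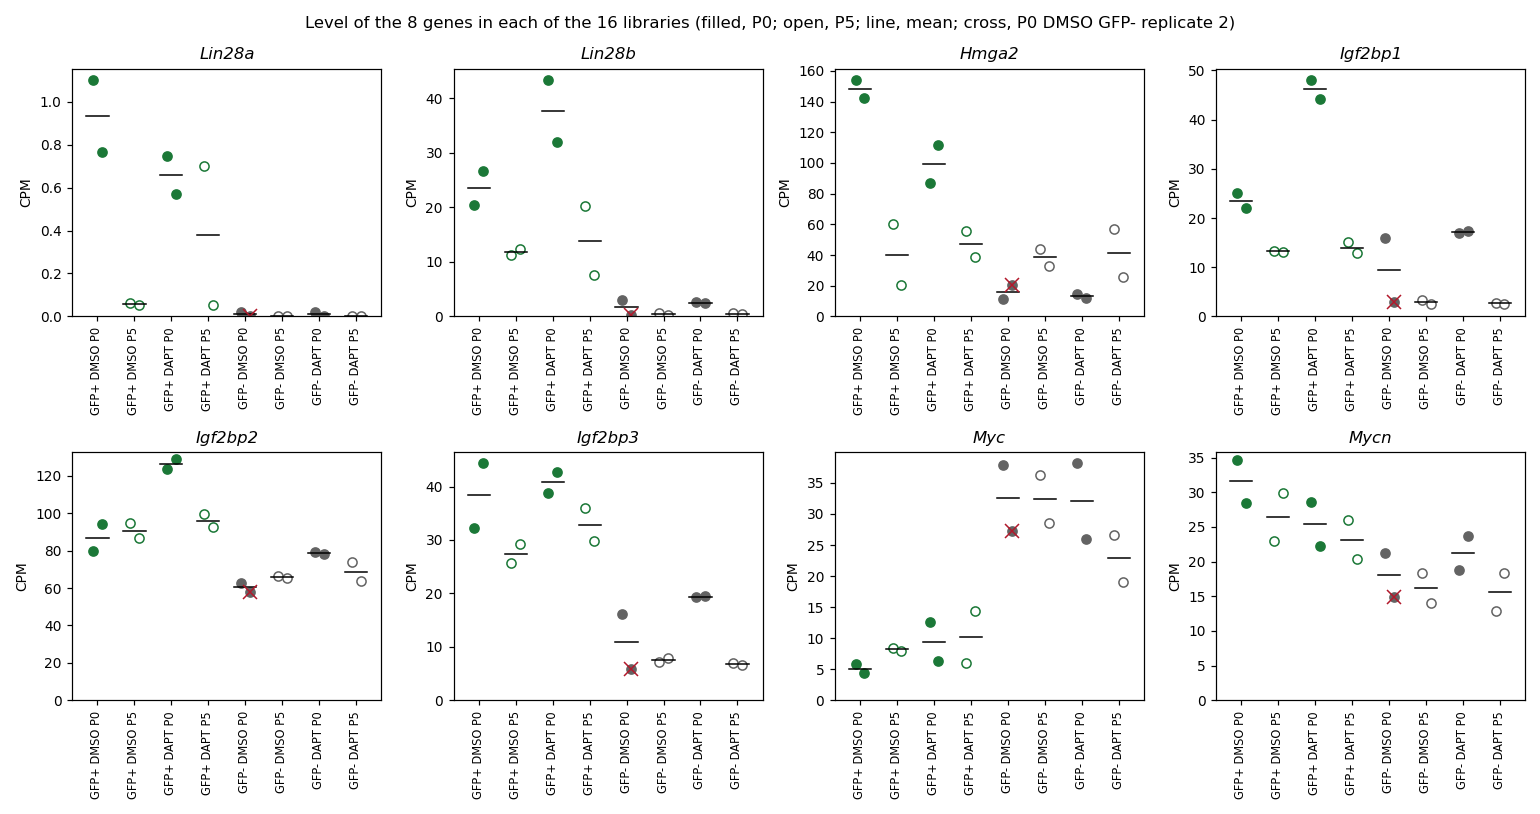
Level of each of the 8 genes in the 16 libraries, in CPM on a linear axis from 0, with 1 panel per gene. Green points are GFP+ and grey points GFP- libraries, filled at P0 and open at P5, lines are the means of 2 libraries, and the red cross marks P0 DMSO GFP- replicate 2. Hmga2 lies lower at P5 in GFP+ libraries and higher at P5 in GFP- libraries, and Lin28b, Igf2bp1 and Igf2bp3 of the marked library lie with the P5 libraries.

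Lin28b, the LIN28 paralog with measurable transcript here, was lower at P5 in both fractions. In GFP+ cells it read 20.4 and 26.7 CPM at P0 and 11.3 and 12.3 CPM at P5 in DMSO, and 43.3 and 31.9 CPM at P0 against 20.2 and 7.65 CPM at P5 in DAPT. In GFP- cells it read 3.08 and 0.247 CPM at P0 and 0.564 and 0.349 CPM at P5 in DMSO, and 2.63 and 2.45 CPM against 0.618 and 0.402 CPM in DAPT. The ages did not overlap within either treatment of the GFP+ fraction or in DAPT in the GFP- fraction, and the 1 P0 library that lay with P5 was P0 DMSO GFP- replicate 2, at 9 reads. With 2 libraries on each side a lack of overlap arises easily without a difference. It is given here and below only to describe the values. Genes past both an adjusted p limit of 0.01 and a fold limit of 2 are referred to as called. By that rule the difference of Lin28b between P5 and P0 was not called in GFP+ cells, where it was -1.03 ± 0.26 in DMSO (adjusted p 0.0409) and -1.42 ± 0.44 in DAPT (adjusted p 0.0741), nor in GFP- cells in DAPT at -2.30 ± 0.41 (adjusted p 0.0379) with edgeR's quasi-likelihood test. In GFP+ DAPT it ranged from -2.30 to -0.888 over fits that left out 1 library. The DESeq2 Wald test called Lin28b in GFP+ DAPT (-1.44, adjusted p 0.00321) and in GFP- DAPT (-2.29, adjusted p 0.000223). In GFP- DMSO the difference was -1.91 ± 1.16 (adjusted p 1, edgeR) with all libraries. It was -2.78 without the P0 library that stood apart, which leaves a single P0 library.

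Lin28a was close to the limit of detection. Summed over both treatments, 64 reads fell in Lin28a in the 4 P0 GFP+ libraries and 12 in the 4 P5 GFP+ libraries, a ratio of 4.75 for P0 over P5 after scaling to depth (exact 95% interval 2.54-9.67, which covers counting error only). In DMSO the 2 P0 libraries had 24 and 15 reads and both P5 libraries had 1 read. In DAPT the P0 libraries had 14 and 11 reads and the P5 libraries had 9 and 1, so that 1 P5 library reached the P0 level and the ages overlapped. The 8 GFP- libraries together held 2 reads, both at P0, and the ratio of GFP+ over GFP- over all libraries was 79.1 (exact 95% interval 21.2-665). At 24 reads or fewer per library, the difference with age was -3.90 ± 1.05 in DMSO (adjusted p 0.0489) and -0.85 ± 1.16 in DAPT (adjusted p 0.669). A long non-coding RNA on the opposite strand, Gm13061, overlaps exons of Lin28a and was given 0-3 reads per library.

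Hmga2 differed with age in opposite directions in the 2 fractions. In GFP+ cells its level was 154.3 and 142.3 CPM at P0 against 60.4 and 20.2 CPM at P5 in DMSO. In DAPT the GFP+ libraries held 86.7 and 111.9 CPM at P0 against 55.9 and 38.6 CPM at P5. All 4 GFP+ libraries of P0 were thus above all 4 of P5. In GFP- cells Hmga2 was at 11.2 and 20.2 CPM at P0 against 43.8 and 33.0 CPM at P5 in DMSO, and at 14.4 and 11.9 CPM against 56.9 and 25.7 CPM in DAPT. All 4 GFP- libraries of P0, the one that stood apart included, were below all 4 of P5. At P5 the fractions overlapped, with 20.2-60.4 CPM in GFP+ and 25.7-56.9 CPM in GFP- libraries, so that the 10.2-fold excess of GFP+ over GFP- cells at P0 in DMSO (log2 3.35 ± 0.32, adjusted p 0.00108) was 1.15-fold at P5 (log2 0.20 ± 0.49, adjusted p 0.739). The call at P0 was lost without either P0 DMSO GFP+ library (log2 3.25 and 3.40), and without P0 DMSO GFP- replicate 2 the value was 3.79.

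Within a fraction these differences of Hmga2 did not pass the rule in edgeR's fits of a single treatment with all libraries. They were -1.93 ± 0.42 in GFP+ DMSO (adjusted p 0.025), -1.06 ± 0.23 in GFP+ DAPT (adjusted p 0.0258), 1.25 ± 0.35 in GFP- DMSO (adjusted p 1) and 1.66 ± 0.39 in GFP- DAPT (adjusted p 0.0662). The DESeq2 Wald test called Hmga2 in GFP+ DAPT (-1.07, adjusted p 0.000196) and in GFP- DAPT (1.67, adjusted p 0.00011) and in neither fraction in DMSO. Leaving out 1 library leaves a single sample in 1 group, so only the range of values is given. With edgeR it was -2.88 to -1.33 in GFP+ DMSO, -1.37 to -0.821 in GFP+ DAPT and 0.975 to 2.12 in GFP- DAPT. Without the P0 DMSO GFP- library that stood apart, Hmga2 was higher at P5 in GFP- DMSO by 1.74, with a single library left at P0. The difference between the fractions in their change with age was tested as an interaction. In DMSO it was -3.19 ± 0.68 (adjusted p 0.144), or -3.63 ± 0.67 (adjusted p 0.0318) without the library that stood apart. In DAPT it was -2.74 ± 0.50 (adjusted p 0.0209), and it was called without P5 DAPT GFP- replicate 2 (-3.19, adjusted p 0.00797). In a fit of all 16 libraries with treatment in the model, which was added after the data had been seen, it was -2.95 ± 0.47 (adjusted p 0.0032) and was called, and among the 8 members it was the only one called. Over all 24731 genes of that fit 0.974% were called. Leaving out 1 library at a time kept the value between -3.22 and -2.63, and it missed the limit without P0 DAPT GFP- replicate 2 (-2.85, adjusted p 0.0106).

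A long non-coding RNA on the opposite strand to Hmga2, 1700006J14Rik, shares exonic bases with it, and the strand setting of the counting was not stated. It was given 38-157 reads in GFP+ libraries and 4-18 in GFP- libraries, against 367-3369 and 486-2391 reads in Hmga2 itself. Cell type markers also moved with age. The sum of 8 cartilage and bone markers was 7956 CPM in P0 DMSO GFP- replicate 1, 8510-12750 CPM in P0 DAPT GFP- libraries and 17650-20740 CPM in P5 GFP- libraries, and it was 22740 CPM in the library that stood apart. Of these 8 markers, 2 were called higher at P5 and none lower in GFP- DAPT. In GFP- cells of both treatments without the library that stood apart 5 of the 8, and 3 of 6 macrophage markers, were called higher and none lower. The sum of 8 mesenchyme markers was 130.1-240.7 CPM in P0 GFP+ and 258.1-1412 CPM in P5 GFP+ libraries, and 8455-13940 CPM in GFP- libraries. In GFP+ DAPT libraries 8 hair cell markers summed to 2333-2598 CPM at P0 and 533-537 CPM at P5. In GFP+ DMSO libraries these sums were 306.3-435.7 CPM at P0 and 396.7-409.3 CPM at P5. The part of these markers in the results for the members was not tested, and in sorted bulk samples fewer cells of a type and less RNA per cell cannot be told apart.

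**Figure D3:**
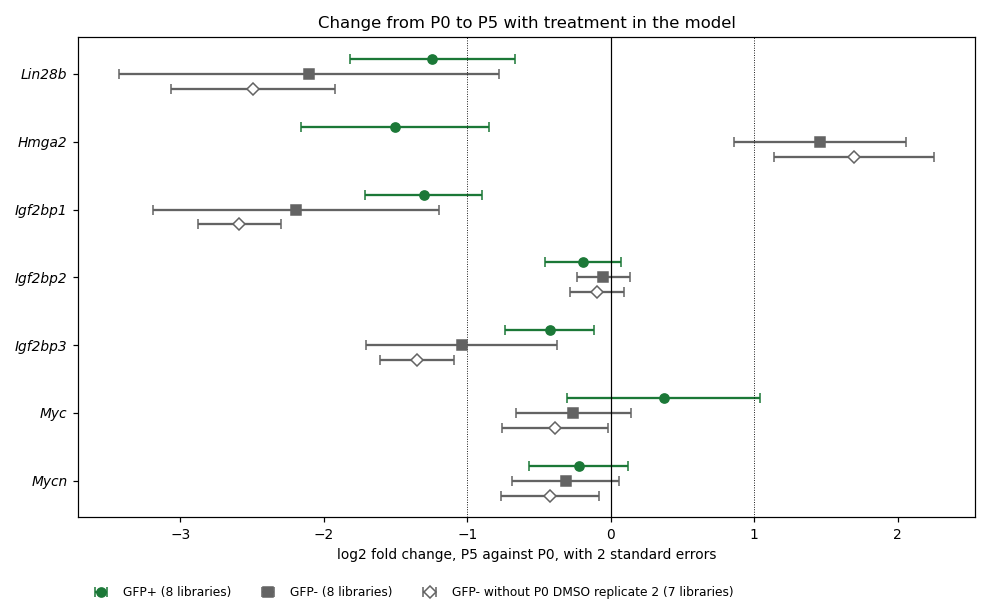
Log2 fold change of P5 against P0 for the 7 members above the detection limit, with treatment in the model and bars of 2 standard errors. Green circles are the 8 GFP+ libraries, grey squares the 8 GFP- libraries and open diamonds the GFP- libraries without P0 DMSO replicate 2, and dotted lines mark a fold change of 2. Lin28b and Igf2bp1 lie left of 0 in both fractions, and Hmga2 lies at -1.50 in GFP+ and at 1.46 in GFP- cells.

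Igf2bp1, an RNA-binding protein of fetal tissues that is largely silent in adult ones, fell from P0 to P5 in both fractions in DAPT. There it was at 48.1 and 44.2 CPM at P0 and at 15.0 and 12.9 CPM at P5 in GFP+ cells, and at 16.9 and 17.3 CPM against 2.76 and 2.57 CPM in GFP- cells. In DMSO it was at 25.1 and 21.99 CPM against 13.4 and 13.2 CPM in GFP+ cells, and at 15.9 and 2.88 CPM against 3.26 and 2.60 CPM in GFP- cells. The ages were separate in each set except GFP- DMSO, where the library that stood apart had the P5 level. The change was called in GFP+ DAPT (-1.71 ± 0.19, 3.27-fold lower, adjusted p 0.00273) and in GFP- DAPT (-2.67 ± 0.21, 6.37-fold lower, adjusted p 0.00845), and it was the only member called in either by edgeR with all libraries. In GFP+ DAPT the sum of hair cell markers was also lower at P5, at 533-537 CPM against 2333-2598 CPM at P0. The part of these markers in the change of Igf2bp1 was not tested. Called genes were 5.78% of all genes tested in GFP+ DAPT and 0.354% in GFP- DAPT, that is 1085 and 62 genes, and these counts moved between 33 and 2180 and between 54 and 726 when 1 library was left out. Each of these calls was lost when either P0 library was left out (adjusted p 0.0423 and 0.0526 in GFP+, 0.0152 and 0.0174 in GFP-), with values between -1.84 and -1.61 and between -2.72 and -2.62 over all such fits. In DMSO the difference was -0.87 ± 0.24 in GFP+ cells (adjusted p 0.0535), and in GFP- cells it was -1.73 ± 0.81 (adjusted p 1) with all libraries. Without P0 DMSO GFP- replicate 2, which leaves a single P0 library, it was -2.47 in GFP- cells.

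The fold of Igf2bp1 with age was smaller in GFP+ than in GFP- cells, by 0.94 ± 0.25 in DAPT, but this difference of 2 changes did not pass (adjusted p 0.0744). Over all 16 libraries it was 0.90 ± 0.54 (adjusted p 0.457), and 1.32 ± 0.28 (adjusted p 0.0144) without the library that stood apart. At P5 in DMSO the level of Igf2bp1 in GFP+ cells was 4.97-fold that in GFP- cells (log2 2.31 ± 0.35, adjusted p 0.00325).

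Igf2bp3 read lower at P5 in GFP- DAPT and in both treatments of the GFP+ fraction. It was at 19.3 and 19.5 CPM at P0 and at 6.97 and 6.62 CPM at P5 in GFP- DAPT. This difference of -1.51 ± 0.17 missed the limit with edgeR (adjusted p 0.0153) and was called by the DESeq2 Wald test (-1.49, adjusted p 9.56e-10). Without P5 DAPT GFP- replicate 1 it was -1.54. In GFP- DMSO Igf2bp3 was at 16.1 and 5.81 CPM against 7.23 and 7.94 CPM, so that the library that stood apart lay below both P5 libraries. The difference there was -0.58 ± 0.53 (adjusted p 1) with that library and -1.12 without it. In GFP+ cells it was at 32.3 and 44.4 CPM at P0 against 25.7 and 29.2 CPM at P5 in DMSO, and at 38.9 and 42.6 CPM against 35.9 and 29.8 CPM in DAPT. The ages did not overlap within either treatment of the GFP+ fraction, yet the difference was -0.52 ± 0.22 in DMSO (adjusted p 0.163) and -0.29 ± 0.18 in DAPT (adjusted p 0.315). The interaction of age with fraction was 1.18 ± 0.24 in DAPT (adjusted p 0.0288), 0.02 ± 0.57 in DMSO (adjusted p 1) and 0.63 ± 0.37 over all libraries (adjusted p 0.457). Without the library that stood apart it was 0.63 ± 0.39 in DMSO (adjusted p 0.607) and 0.96 ± 0.22 over the other libraries (adjusted p 0.0221). The gene 2410003K15Rik lies on the opposite strand over exons of Igf2bp3 and was given 215-519 reads per library, against 212-910 in Igf2bp3.

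Igf2bp2, the IGF2BP that adult tissues also express, was the most even of the family. It was at 79.7-128.9 CPM in the 8 GFP+ libraries, at 58.1-79.1 CPM in the 8 GFP- libraries, and the ages overlapped in each fraction when both treatments were pooled. Within a treatment they overlapped only in GFP+ DMSO. With edgeR, P5 was lower in GFP+ DAPT (-0.38 ± 0.13, adjusted p 0.0945) and in GFP- DAPT (-0.19 ± 0.13, adjusted p 0.426), and higher in GFP- DMSO (0.08 ± 0.17). With treatment in the model, P5 against P0 was -0.19 (interval of 2 standard errors -0.46 to 0.07, adjusted p 0.399) in GFP+ cells and -0.05 (-0.24 to 0.13, adjusted p 0.761) in GFP- cells, or -0.10 ± 0.09 (adjusted p 0.486) without the library that stood apart. A change of 2-fold or more with age lay outside both intervals.

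Neither Myc nor Mycn was called with age in either fraction by edgeR or DESeq2. Myc was at 4.38-14.4 CPM in GFP+ and at 19.1-38.2 CPM in GFP- libraries, with no overlap of the fractions, and its level in GFP+ cells was 5.89-fold lower at P0 (log2 -2.56 ± 0.32, adjusted p 0.00228) and 3.61-fold lower at P5 (log2 -1.85 ± 0.25, adjusted p 0.00252) in DMSO. The call at P0 was lost without either P0 DMSO GFP+ library (-2.83 and -2.37, adjusted p 0.0304 and 0.036) and that at P5 without P5 DMSO GFP- replicate 1 (-1.70, adjusted p 0.0172). P5 against P0 was 0.37 (interval -0.30 to 1.04, adjusted p 0.543) in GFP+ cells and -0.26 (-0.66 to 0.14, adjusted p 0.464) in GFP- cells. Mycn was at 20.3-34.7 CPM in GFP+ and at 12.9-23.7 CPM in GFP- libraries, and P5 against P0 was -0.22 (-0.57 to 0.12, adjusted p 0.459) and -0.31 (-0.69 to 0.06, adjusted p 0.36). In GFP- cells without the library that stood apart these values were -0.39 ± 0.19 for Myc (adjusted p 0.173) and -0.42 ± 0.17 for Mycn (adjusted p 0.114). The ages of both genes overlapped in each fraction when both treatments were pooled.

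Taken over the 8 members with treatment in the model, 7 of 8 values were below 0 in GFP+ cells and 6 of 7 in GFP- cells, where Lin28a was too low to test. Their median was -0.83 against -0.05 for all genes tested in GFP+ cells, and -0.31 against -0.02 in GFP- cells. In GFP+ cells 1 member, Igf2bp1, was called by edgeR (-1.30 ± 0.20, adjusted p 0.00311), with 4.07% of all genes called, and Lin28b (-1.24 ± 0.29, adjusted p 0.0207) and Hmga2 (-1.50 ± 0.33, adjusted p 0.0161) missed the limit with edgeR. Over all genes edgeR called 903 in these GFP+ cells and DESeq2 called 1880. The DESeq2 Wald test called 3 members there, Igf2bp1, Lin28b (-1.24, adjusted p 0.00055) and Hmga2 (-1.51, adjusted p 6.74e-05), and edgeR called Hmga2 without P5 DMSO GFP+ replicate 2 (-1.18, adjusted p 0.00351). That call of Igf2bp1 was lost without P0 DMSO GFP+ replicate 1, without either P0 DAPT GFP+ library and without P5 DAPT GFP+ replicate 1, at adjusted p values from 0.0105 to 0.0142. In GFP- cells edgeR's quasi-likelihood test with all 8 libraries called no member and 0% of all 18018 genes. An unadjusted p under 0.05 was reached by 4 members and by 3294 of these genes. The DESeq2 Wald test called 2 members (Igf2bp1 and Hmga2) and 174 genes in all. Without P0 DMSO GFP- replicate 2, Lin28b (-2.49 ± 0.29, adjusted p 0.00166), Igf2bp1 (-2.59 ± 0.14, adjusted p 0.000172) and Igf2bp3 (-1.35 ± 0.13, adjusted p 0.000914) were called lower and Hmga2 (1.70 ± 0.28, adjusted p 0.00613) higher, with 4.11% of all genes called higher, 2.46% called lower and 6.57% in all. That library was singled out by its likeness to P5, so its removal favors such calls. In GFP+ DMSO alone, where the libraries of P0 lie in another stretch, no member was called by edgeR or by DESeq2. There edgeR called 3.32% of all genes, and 5 members and 6203 of 20844 genes had an unadjusted p under 0.05. In GFP- DMSO alone no member was called by either tool, and 0% of all genes were called by edgeR. Here 1 member and 135 of 17423 genes had an unadjusted p under 0.05. In the interactions of a single treatment edgeR called no member, with 0.0344% of genes called in DMSO and 1.32% in DAPT. An unadjusted p under 0.05 was reached by 1 member and 2507 of 23257 genes in DMSO, and by 3 members and 4258 of 21291 genes in DAPT. The DESeq2 test called 1 and 2 members, with 301 and 1264 genes called in all.

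Between the fractions in DMSO, 3 of 8 members (Lin28a, Hmga2 and Myc) were called at P0, with 40.9% of all genes called, and 4 of 7 at P5, with 33.9% called. Because so many genes differ between the fractions, these counts say little about the members as a set. Besides Hmga2, Igf2bp1 and Myc, the level of Lin28b was 28.1-fold higher in GFP+ cells at P5 (log2 4.81 ± 0.47, adjusted p 0.00113). At P0 it was 3.91 ± 1.02 higher on the log2 scale (adjusted p 0.0175), or 2.99 without the library that stood apart. Igf2bp3 was 3.98-fold higher in GFP+ cells at P5 (log2 1.99 ± 0.24, adjusted p 0.00183). At P0 its excess was 1.91 ± 0.50 (adjusted p 0.0171) on the log2 scale with that library and 1.32 without it. The calls of Igf2bp1 and Igf2bp3 at P5 were each lost without P5 DMSO GFP- replicate 1 or 2, at adjusted p values from 0.0119 to 0.022. At P0 Lin28a, Hmga2 and Myc lost their calls without P0 DMSO GFP+ replicate 1 and also without replicate 2.

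The response to DAPT was compared within each age and fraction. In P0 GFP+ cells, where edgeR called 8.37% of all genes and the groups lie in different stretches of library numbers, no member was called by edgeR or by DESeq2. An unadjusted p under 0.05 was reached by 4 members and by 8343 of 20711 genes. The level of Igf2bp1 was 1.91-fold higher in DAPT (0.93 ± 0.17, adjusted p 0.00472), just under the fold limit, and the value ranged from 0.86 to 1.07 when 1 library was left out. Hmga2 was lower (-0.61 ± 0.16, adjusted p 0.019), and Igf2bp2 (0.50 ± 0.14, adjusted p 0.0268) and Lin28b (0.64 ± 0.21, adjusted p 0.0528) were higher. Hair cell markers differed between the same libraries, at a sum of 2333-2598 CPM for 8 genes in DAPT against 306.3-435.7 CPM in DMSO, and their part in these values was not tested. The other members differed by -0.54 ± 0.76 (Lin28a, adjusted p 0.636), 0.05 ± 0.19 (Igf2bp3, adjusted p 0.864), 0.84 ± 0.40 (Myc, adjusted p 0.144) and -0.35 ± 0.20 (Mycn, adjusted p 0.223). In P5 GFP+, P0 GFP- and P5 GFP- cells neither edgeR nor DESeq2 called any member, and 0% of all genes were called by edgeR in each. In that order 0, 1 and 0 members had an unadjusted p under 0.05. Genes with such a p were 953 of 18754, 614 of 17357 and 342 of 17286. In P0 GFP- cells without the library that stood apart, the values of the tested members lay between -0.29 (Lin28b) and 0.31 (Igf2bp2). Without P0 DMSO GFP- replicate 1 the library that stood apart is the only one in DMSO. That fit sets DAPT against a library like those of P5, so its calls cannot be read as a response to DAPT.

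Other genes of the circuit were counted from lists, all as P5 against P0 with treatment in the model. None of 16 genes of let-7 processing and turnover was called in GFP+ cells, and the lowest adjusted p values were those of Xpo5, which exports precursors from the nucleus (-0.77 ± 0.14, adjusted p 0.0077), and Msi1, an RNA-binding protein of progenitor cells (0.85 ± 0.16, adjusted p 0.00799), both under the fold limit. Of 18 further genes known as let-7 targets, 2 were called lower and none higher in GFP+ cells, with 2.82% of all genes called higher and 1.25% lower. Among them was Tgfbr1, a receptor of TGF-beta ligands (-1.60 ± 0.21, adjusted p 0.0013), while the median of the list was -0.10 against -0.05 for all genes. Tgfbr1 also differed from GFP- cells in its change with age (-1.59 ± 0.26, adjusted p 0.0032). In GFP- cells neither list had a called gene by edgeR with all libraries or without the library that stood apart, and the lowest adjusted p among the let-7 targets belonged to Hmga1, the paralog of Hmga2, at 1.38 ± 0.37, and to Hic2 (-0.37 ± 0.13), both at 0.246. Hmga1 read 16.5-18.5 CPM as group means of P0 GFP- cells and 44.6-47.1 CPM at P5, and 4.64-5.67 CPM in GFP+ cells.

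Precursor genes of let-7 were measured poorly in these libraries, which per the methods were made with a kit for messenger RNA. Group means of the 9 genes counted lay between 0 and 1.39 CPM and none was called. Mature let-7 is too short for such libraries and was not measured here. Of 12 let-7 hairpins in the RefSeq table, 9 held GGAG, the letters that LIN28 is known to bind, against 44.5% of all 1005 hairpins. The letters were counted anywhere in the hairpin, and let-7e holds them in its mature strand, so this is no count of LIN28 sites.

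Of 14 imprinted and growth factor genes, 2 were called lower in GFP+ cells, namely Cdkn1c, an inhibitor of cyclin-dependent kinases (-2.47 ± 0.34, adjusted p 0.00165), and Grb10, an adaptor that restrains insulin and IGF signaling (-1.06 ± 0.19, adjusted p 0.00616). The list median was -0.02. Among 10 Myc partners and relatives 1, Max, the partner with which MYC binds DNA, was called higher in GFP+ cells (1.05 ± 0.14, adjusted p 0.00165). Among 12 Myc target genes 1, Nme1, a nucleoside diphosphate kinase, was called lower (-1.07 ± 0.20, adjusted p 0.00868), and the median of that list was -0.47. Of 16 cell cycle genes 1, Mcm2, a subunit of the replicative helicase, was called lower (-1.70 ± 0.19, adjusted p 0.000621), although the median of that list was 0.81. The 2 P5 GFP+ libraries with the highest sums of mesenchyme markers, 1364 and 1412 CPM, held 46.6 and 42.9 CPM of the proliferation marker Mki67, and the 2 with sums of 258.1 and 350.1 CPM held 9.31 and 11.3 CPM. The part of these markers in the level of the cell cycle list was not tested. In GFP- cells with all 8 libraries no gene of these 4 lists was called by edgeR. Without the library that stood apart 5 cell cycle genes were called lower and 1 higher. Among them were the mitotic genes Ccnb1 (-1.26 ± 0.19, adjusted p 0.00438) and Bub1 (-1.16 ± 0.16, adjusted p 0.00345) and, as the higher one, Cdkn1a, an inhibitor of the cell cycle (1.11 ± 0.13, adjusted p 0.00191). The list median was -0.90 against -0.03 for all genes. The interaction was called by edgeR for none of these 16 genes in the fit of all libraries. In the same GFP- fit Mest, a maternally imprinted growth gene, was called lower (-2.21 ± 0.22, adjusted p 0.000992) and Dlk1, an imprinted ligand-like membrane protein, higher (1.47 ± 0.12, adjusted p 0.000478). Of the Myc relatives only Mxd3, a partner of MAX, was called, and it was lower (-1.14 ± 0.20, adjusted p 0.00693).

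**Figure D4:**
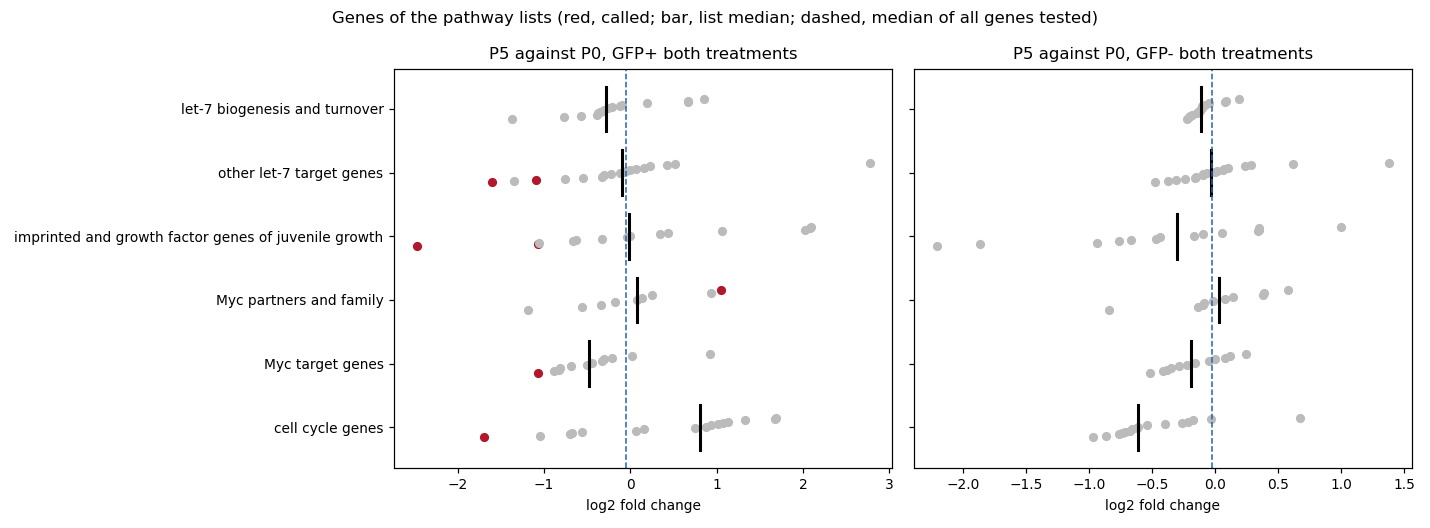
Log2 fold change of P5 against P0 for each gene of 6 lists of the circuit, in GFP+ cells on the left and GFP- cells on the right, with treatment in the model and all 8 libraries of each fraction. Red points are called genes, black bars list medians and the dashed line the median of all genes tested. The bar of the cell cycle list lies at 0.81 in GFP+ cells, and no point is red in GFP- cells.

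Genes with let-7 matches were also counted across the whole transcriptome, leaving out the members. In GFP+ cells 2.26% of 1638 genes with at least 1 CTACCTC were called lower at P5, against 1.38% of 15300 genes without it, and 3.91% against 3.44% were called higher. The medians were -0.01 and -0.03, so the median of genes with a match was no lower than that of the rest. Of 23 genes with 3 or more matches 1 was called lower, and their median was -0.10. In GFP- cells without the library that stood apart 2.7% of 1554 genes with a match and 2.78% of 13884 without were called lower. Genes with and without a match were not matched for UTR length or level. The differences between these shares were not tested.

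Over the 8 group means, the genes whose pattern was most like that of Lin28b were A330076H08Rik, Enox and Alg8 (Pearson r of log2 values 0.9946-0.9962), for Hmga2 they were Unc13b, Zscan22 and Frmpd4 (0.9525-0.9892), and for Igf2bp1 they were Dpysl5, Kif5c and Onecut2 (0.9717-0.9873). For Igf2bp3 they were Ppp1r9a, Pus10 and Ydjc (0.9868-0.9905), for Igf2bp2 Dync2h1, 2610101N10Rik and Gon4l (0.9816-0.9862), for Myc Tdp2, BC037034 and Smad5 (0.9921-0.9954), and for Mycn E2f6, Ptprz1 and Ptch1 (0.9858-0.9879). Among the members themselves r was 0.976 for Lin28b with Igf2bp3, 0.94 for Mycn with Igf2bp3 and -0.88 for Myc with Lin28b. The 8 points fall into the 2 fractions, and these likenesses describe group means without a test.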

How the data were processed

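RNA of sorted GFP+ and GFP- cochlear cells was sequenced as 100 bp paired ends. The authors aligned reads to mm9 (NCBIM37) with TopHat (1.4.0 in the submitters' processing notes, which also name HTSeq and DESeq 1.9.2) and deposited raw counts per Ensembl gene, 1 library per file. The counting mode and its strand setting are not given in the sources used here. Each file lists 36536 genes and 5 closing lines for unassigned reads, which entered no test.

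Groups came from the sample titles. Comparisons used the groups compared, filterByExpr (minimum count 10, minimum total 15), TMM normalization and the quasi-likelihood F test of edgeR 4.0.16 in R 4.3.3, with Benjamini-Hochberg adjustment over all genes tested. Called genes passed limits of 0.01 on the adjusted p and 2 on the fold change. The standard error is the log2 fold change over the square root of F. CPM were scaled by TMM over 24731 genes in 16 libraries. Fits were tested on simulated data. Alternatives, DESeq2 1.42.0 among them, are given in the closing section.

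The members and lists were chosen with earlier results of these data known. All 8 members were reported, and from each list and comparison at most 4 called genes with at least 10 CPM, or else the 2 with the lowest adjusted p (1 called gene is not reported here). Genes most like a member were the 3 with the highest Pearson r over 8 group means of log2(CPM + 0.5), among genes with at least 5 CPM in a group. Library likeness used log2(CPM + 1). Exonic lengths, 3′ UTRs and coordinates came from GENCODE M1.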

Additional observations from a re-analysis of the deposited data

Results flagged for a closer look

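The change of Hmga2 with age differed between the fractions in a test of the difference itself, at -2.74 on the log2 scale in DAPT (adjusted p 0.0209) and at -2.95 over all 16 libraries (adjusted p 0.0032, edgeR). In DMSO the difference was -3.19 (adjusted p 0.144, edgeR). The fit of all libraries was added after the data had been seen, and its call was lost without P0 DAPT GFP- replicate 2 (-2.85). Every GFP+ library of P5 lay below every one of P0, and every GFP- library of P5 lay above every one of P0, in 4 against 4 libraries each. The change of Igf2bp3 with age differed between the fractions in DAPT by 1.18 (adjusted p 0.0288), with lower values at P5 in 2 of 2 GFP+ and 2 of 2 GFP- libraries and a larger difference in the GFP- fraction, and by 0.63 over all libraries (adjusted p 0.457), or 0.96 (adjusted p 0.0221) without P0 DMSO GFP- replicate 2. In DAPT both values passed an adjusted p limit of 0.05 and not the limit of 0.01 used elsewhere. Groups of 2 samples were not tested for outlying samples.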

How the results depend on the processing

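Groups held 2 samples each, Lin28a had at most 24 reads per library, and Lin28b had 9-26 reads in 5 of 8 GFP- libraries, which limits the precision there. Under DESeq2 size factors no count of called members moved. With no filter on low counts, called members became 1 in GFP+ DMSO, 3 in GFP+ DAPT, 4 in GFP- DAPT, 3 in GFP+ cells of both treatments, 1 in each interaction of a single treatment and 5 for GFP+ against GFP- at P0. The DESeq2 Wald test called 3 in GFP+ DAPT, 4 in GFP- DAPT, 3 in GFP+ and 2 in GFP- cells of both treatments, and 1 (DMSO) and 2 (DAPT) in the interactions. With all 8 groups in the fit, counts were 0 in GFP+ DAPT, 0 in GFP- DAPT and 5 for GFP+ against GFP- at P0. An adjusted p limit of 0.05 gave 3 in GFP+ DMSO, 2 in GFP+ DAPT, 3 in GFP- DAPT, 3 in GFP+ cells of both treatments, 2 in the DAPT interaction and 5 for GFP+ against GFP- at P0. The causes were not tested.

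All genes called moved by over 1.5 times with no filter (GFP+ DMSO 1961 against 691, GFP+ DAPT 2606 against 1085, GFP- DAPT 1283 against 62, interactions 92 against 8 and 1775 against 281, DAPT at P5 in GFP+ 108 against 0), with the DESeq2 Wald test (for the same 5 in order 1659, 2155, 1306, 301 and 1264, GFP- DMSO 1 against 0, GFP+ of both treatments 1880 against 903, GFP- of both treatments 174 against 0, all-library interaction 747 against 241, and for DAPT 58, 27 and 8 against 0 in P5 GFP+, P0 GFP- and P5 GFP-), with all 8 groups (GFP- DAPT 0, GFP+ and GFP- of both treatments 1545 and 1, interactions 58 in DMSO and 375 in all libraries, DAPT at P0 in GFP+ 1089 against 1733) and at 0.05 (2003, 2242, 869, 46 and 1030 for the first 5, 1706, 612 and 3761 for GFP+ of both treatments, the all-library interaction and DAPT at P0 in GFP+).

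The labels do not say that replicate numbers mark pairs. The deviations of same-numbered samples correlated between -0.319 and 0.744 over all groups, and between 0.119 and 0.744 among the 4 GFP- groups. The replicate number as a block called 1 member in GFP+ DMSO, 2 in GFP+ DAPT and 4 in GFP- DAPT, with 1050, 1761 and 1200 genes in all against 691, 1085 and 62 without the block, and moved no other count of members by over 1.5 times. The members gained with the block were Hmga2 in GFP+ DMSO (-2.11, adjusted p 0.000494), Lin28b in GFP+ DAPT (-1.55, adjusted p 0.00607), and Lin28b (-2.32, adjusted p 0.00643), Hmga2 (1.56, adjusted p 0.000596) and Igf2bp3 (-1.51, adjusted p 0.000649) in GFP- DAPT. For GFP+ against GFP- at P0 the block called Lin28b (4.56, adjusted p 0.00855) and lost Lin28a (6.06, adjusted p 0.01). A block with crossed numbers, added after the data had been seen because the deviations of P5 GFP+ samples correlated at -0.319, called 0 members and 0 genes for DAPT at P5 in GFP+ cells, as without it.

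Leaving out 1 library at a time gave 0-1 called members in GFP+ DMSO, 0-3 in GFP+ DAPT, 0-2 in GFP- DMSO, 0-2 in GFP- DAPT, 0-2 in GFP+ and 0-4 in GFP- cells of both treatments, 0-0, 0-1 and 0-1 in the interactions of DMSO, DAPT and all libraries, 0-1, 0-0, 0-2 and 0-0 for DAPT in P0 GFP+, P5 GFP+, P0 GFP- and P5 GFP- cells, and 0-7 and 1-4 for GFP+ against GFP- at P0 and P5. For GFP+ against GFP- at P0 the members called with all libraries lost their calls without P0 DMSO GFP+ replicate 1, when no gene at all was called, and also without replicate 2. The highest count there came without P0 DMSO GFP- replicate 1. So did that for DAPT in P0 GFP- cells, where the library that stood apart is then the only one in DMSO. In a comparison of 2 groups each such fit leaves 1 group with a single sample. All genes called then ranged over 471-1513 in GFP+ DMSO, 33-2180 in GFP+ DAPT, 0-492 in GFP- DMSO, 54-726 in GFP- DAPT, 600-947 in GFP+ and 0-1217 in GFP- cells of both treatments, 0-94, 31-537 and 155-403 in the interactions, 1338-1764, 0-2, 0-549 and 0-11 for DAPT, and 0-9170 and 2136-7921 for GFP+ against GFP-.

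The sign of Igf2bp3 in the DMSO interaction, 0.02 with all libraries, turned to -0.0131 with DESeq2 size factors, -0.0155 with the DESeq2 Wald test and -0.0254 with the replicate block. The log2 values that changed sign when a library was left out ranged in the DMSO interaction from -0.83 to 1.63 (Igf2bp1), -0.17 to 0.0301 (Igf2bp2), -0.84 to 0.63 (Igf2bp3), -1.85 to 1.77 (Lin28b) and -0.35 to 0.16 (Mycn), in the DAPT interaction from -1.57 to 2.04 (Lin28a), -0.00196 to 1.38 (Lin28b) and -0.19 to 1.18 (Myc), and in that of all libraries from -1.85 to 0.20 (Lin28a) and -0.0109 to 0.23 (Mycn). For P5 against P0 they ranged in GFP- DMSO from -1.12 to 0.34 (Igf2bp3), -2.78 to 0.84 (Lin28b), -0.26 to 0.21 (Myc) and -0.43 to 0.0746 (Mycn), in GFP+ DMSO from -0.0855 to 0.13 (Igf2bp2), in GFP+ DAPT from -3.50 to 0.10 (Lin28a), -0.64 to 0.69 (Myc) and -0.32 to 0.0535 (Mycn), and in GFP- cells of both treatments from -0.10 to 0.0233 (Igf2bp2). Igf2bp3 ranged from -0.13 to 0.32 for DAPT in P0 GFP+ cells, and Hmga2 from -0.83 to 0.78 for GFP+ against GFP- at P5. In GFP- DMSO the positive values of Lin28b and Igf2bp3 came without P0 DMSO GFP- replicate 1, which leaves the library that stood apart as the only one of P0. None of these values was called with all libraries. Hmga2 kept its direction of change with age in each fraction under every alternative run. In GFP- cells of both treatments the adjusted p of the members called without P0 DMSO GFP- replicate 2 reached 0.598 (Lin28b) and 0.584 (Igf2bp1, Igf2bp3 and Hmga2) over the alternatives. Over all alternatives the adjusted p of Hmga2 ranged from 8.19e-11 to 0.05 in GFP+ DMSO, 4.83e-07 to 0.186 in GFP+ DAPT, 0.00011 to 0.213 in GFP- DAPT and 2.11e-07 to 0.0106 in the all-library interaction, that of Lin28b from 3.19e-06 to 0.356 in GFP+ DAPT and 0.000223 to 0.27 in GFP- DAPT, and that of Igf2bp3 from 9.56e-10 to 0.163 in GFP- DAPT.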
